A study of Mus musculus with 9 samples.

Results

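The microRNA miR-218 was followed across the small RNA libraries of 9 mouse livers. Its members were the rows of the deposited miRNA table whose name begins with mmu-miR-218-, and 2 of the 1140 rows met this rule: mmu-miR-218-5p and mmu-miR-218-1-3p. mmu-miR-218-5p was selected on its rise in the TAA group against the control group and its fall in the recovery group, so its values in those contrasts are a description and carry no test. All animals were male C57BL/6 mice, 8 weeks old when treatment began, and each sample was the liver of a different mouse. The control group (labelled NS, n = 3) was given intraperitoneal normal saline over 8 weeks. The TAA group (n = 3) was given intraperitoneal thioacetamide (TAA) over 8 weeks, a hepatotoxin that injures hepatocytes around the central vein and leaves scar tissue. The recovery group (n = 3) had the same 8 weeks of TAA and was then left without it for 8 more weeks. Recovery mice were therefore 8 weeks older at sampling, and recovery and elapsed time cannot be told apart. The model is one of chemical injury in whole liver, with no sorting of cells.

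A miRNA is cut from a hairpin precursor, and one arm, the mature strand, is loaded into an Argonaute protein. There its seed, bases 2 to 8, pairs with sites in the 3′ untranslated regions (UTRs) of messenger RNAs, which lowers their stability or translation. miR-218 is made from hairpins inside introns of Slit2 and Slit3, genes for secreted guidance proteins that signal through Robo receptors. It is best known from motor neurons and from the vasculature, where targeting of Robo receptors has been described. In the liver, Slit and Robo proteins have been studied in hepatic stellate cells, the vitamin A-storing cells that become collagen-producing myofibroblasts in fibrosis.

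The mature sequences show why the 5p arm cannot tell the loci apart and the 3p arms can. They are RefSeq sequences (GRCm38.p6), written 5′ to 3′ with the seed in capitals.
mmu-miR-218-5p: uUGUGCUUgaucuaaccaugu
mmu-miR-218-1-3p: aAACAUGGuuccgucaagcacc
mmu-miR-218-2-3p: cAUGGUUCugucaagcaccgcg
The 5p arm is the same 21 bases at both loci, chr5:48223966-48223986 in the first and chr11:35616840-35616860 in the second, each on the plus strand. A read of mmu-miR-218-5p can thus come from either locus. The 3p arms lie at chr5:48224005-48224026 and chr11:35616882-35616903. When the second is moved by 3 bases, the arms share an overlap of 19 bases with 1 difference, C12U, counted from 1 at the 5′ end of mmu-miR-218-1-3p. The offset gives the 3p arms different seeds, AACAUGG and AUGGUUC.

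The hairpins are shown because the arms sit at matching places in both, with the mature 5p and 3p arms in capitals.
mir-218-1: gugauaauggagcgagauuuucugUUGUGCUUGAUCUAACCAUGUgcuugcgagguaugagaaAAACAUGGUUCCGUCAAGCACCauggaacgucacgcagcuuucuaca
mir-218-2: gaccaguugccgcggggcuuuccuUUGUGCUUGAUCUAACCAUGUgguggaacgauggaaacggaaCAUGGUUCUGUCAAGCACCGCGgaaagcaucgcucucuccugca
Each hairpin is 110 bases long and the 5p arm spans bases 25 to 45 of both. The 3p arm begins at base 64 of mir-218-1 and at base 67 of mir-218-2. In the GENCODE M21 annotation, mir-218-1 (chr5:48223942-48224051) lies on the sense strand in intron 16 of the 39-exon Slit2 transcript (ENSMUSG00000031558). That intron is 3662 bases long, with the hairpin 2951 bases from the upstream exon and 601 bases from the next one. mir-218-2 (chr11:35616816-35616925) lies on the sense strand in intron 14 of the 36-exon Slit3 transcript (ENSMUSG00000056427). Its intron is 9571 bases long, with 4379 bases before the hairpin and 5082 after it. Neither hairpin overlapped an annotated exon.

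**Figure D1:**
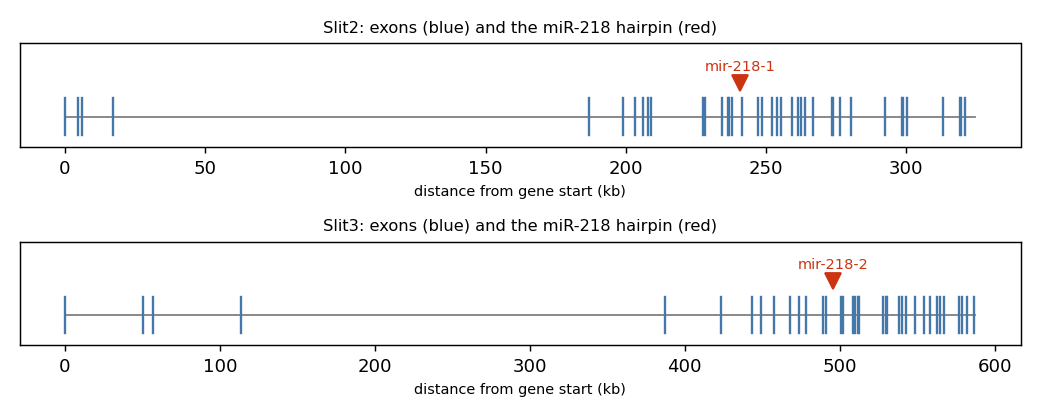
Position of each miR-218 hairpin in its host gene. The horizontal axis is the distance from the gene's annotated start in kb, blue bars are exons and the red triangle is the hairpin. mir-218-1 sits 240.8 kb into the 324.6 kb of Slit2 and mir-218-2 sits 495.6 kb into the 587.3 kb of Slit3, both beyond the long early introns.

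The seed UGUGCUU was rare. Of 1679 mature mouse miRNAs in the RefSeq set it was held by 2, mmu-miR-218-5p and mmu-miR-7002-3p, whose sequence differs after the seed.
mmu-miR-7002-3p: uUGUGCUUccccuugccag
None of the 935 listed rows that had a RefSeq sequence held this seed other than mmu-miR-218-5p. Its counts therefore stood for the whole seed family among those rows.

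Sequencing depth was similar across groups, with 9071847 to 12983378 counts per library. Rows detected were 631 to 663 in control libraries, 806 to 828 in TAA libraries and 675 to 722 in recovery libraries. Counts were scaled to library size with TMM factors (CPM), which set aside the rows that differ most between libraries. These factors differed strongly between groups, from 0.7385 to 0.7921 for control mice, 1.433 to 1.633 for TAA mice and 0.7661 to 0.8873 for recovery mice. For this reason the deposited TPM, which here is the count divided by the library total on the same scale as CPM without those factors, is given beside the CPM. The rows miR-122-5p and miR-122b-3p had the same mean of 169700 CPM over the control and TAA libraries. They may hold the same reads, which would then enter the library totals and the TPM more than once. One library stood apart: TAA replicate 3 held 67184 counts of miR-1a-3p, a miRNA of striated muscle, against 191 and 172 in the other TAA libraries. Hepatocyte-defining miR-122-5p was abundant in every library, at 70020 to 315100 CPM, as the tissue label says.

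mmu-miR-218-5p was low in control liver, high in TAA liver and low again after recovery. In the control group its counts were 147, 97 and 94. In the TAA group they were 7009, 3482 and 3444. In the recovery group they were 75, 166 and 194. Every TAA library stood far above every other library, while the control and recovery libraries overlapped. As CPM, control mice had 14.3, 12.8 and 12.5, TAA mice 432.3, 235.0 and 231.3, and recovery mice 8.02, 15.3 and 17.8. The deposited TPM values were 11.3, 9.45 and 9.45 in control mice, 619.2, 383.8 and 375.7 in TAA mice, and 6.14, 13.5 and 15.6 in recovery mice. TAA replicate 1 was the highest library and recovery replicate 1 the lowest on both scales.

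**Figure D2:**
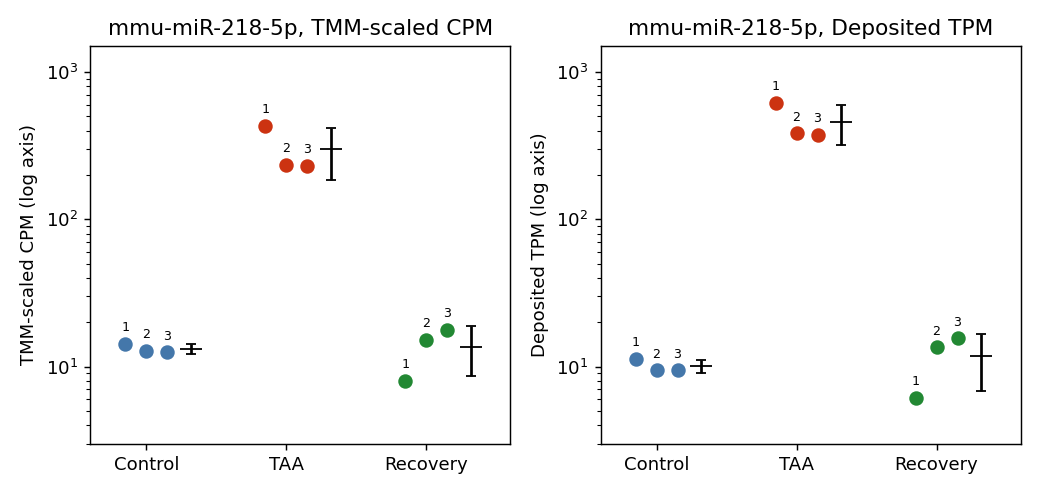
mmu-miR-218-5p in each of the 9 libraries, as TMM-scaled CPM (left) and deposited TPM (right), both on log axes. Points are single mice numbered by replicate, and the bar beside each group is its mean ± SD (n = 3). The TAA libraries (231.3 to 432.3 CPM) lie above all others, and the control (12.5 to 14.3) and recovery (8.02 to 17.8) libraries overlap.

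The group means were 13.2 ± 0.957 CPM in control mice, 299.5 ± 115 in TAA mice and 13.7 ± 5.06 in recovery mice (SD, n = 3 each). The TAA mean was 22.7-fold the control mean in CPM and 45.6-fold in TPM, so the scaling changed the size of the rise and not its direction. The lowest TAA library was 16.2-fold above the highest control library and 13-fold above the highest recovery library in CPM. In the order of the group means, control and recovery were neighbours that did not differ beyond their spread. Of all rows tested, 39.3% had every TAA library above every control library, and 28.9% had every TAA library above every recovery library. Since mmu-miR-218-5p was chosen for this pattern, nothing is read from its place among them.

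Ranks within a library do not depend on scaling. mmu-miR-218-5p ranked 192, 199 and 197 by count in the control libraries. It ranked 50, 68 and 68 in the TAA libraries and 235, 197 and 187 in the recovery libraries. Its rank was thus nearer the top in every TAA library than in any other library. As a share of all counts it remained a minor miRNA, with 0.0471% of the TAA group's counts.

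Counting error was small beside the differences between some mice of the TAA and recovery groups. The exact binomial 95% interval of the TPM value was 604.8 to 633.8 in TAA replicate 1 and 371.2 to 396.8 in TAA replicate 2, which do not overlap. In the recovery group the interval was 4.83 to 7.70 in replicate 1 and 13.5 to 17.9 in replicate 3. Some mice of the TAA group and of the recovery group therefore differed by more than counting. In the control group the intervals overlapped, at 9.566 to 13.31, 7.664 to 11.53 and 7.635 to 11.56. In CPM the highest library was 1.14-fold the lowest in the control group, 1.87-fold in the TAA group and 2.22-fold in the recovery group. Intervals and floors here cover counting error only, since reads were amplified.

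Between the TAA and control groups the fitted log2 fold change of mmu-miR-218-5p was 4.40 (SE 0.27). It was 8th from the top of 420 rows tested. Rows were called where the FDR was below 0.05 and the fold change at least 2. By that rule 25.0% of the rows were called higher in the TAA group and 16.7% lower. Of the 7 rows above it, miR-344d-3p, miR-147-3p, miR-582-3p and miR-370-3p had at most 9 counts in any control library. The remaining 3 were the striated muscle rows miR-133a-3p, miR-1a-3p and miR-1b-5p, whose counts came from TAA replicate 3. miR-1b-5p had the same count as miR-1a-3p in 8 of the 9 libraries, so these rows may hold the same reads and are uncertain. Among the 224 rows with a mean of at least 10 CPM, mmu-miR-218-5p was 4th, behind these muscle rows. Without TAA replicate 3 its log2 fold change was 4.56 and it came first of 224 such rows, followed by miR-434-3p (3.38), miR-127-3p (3.34) and miR-434-5p (3.30).

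**Figure D3:**
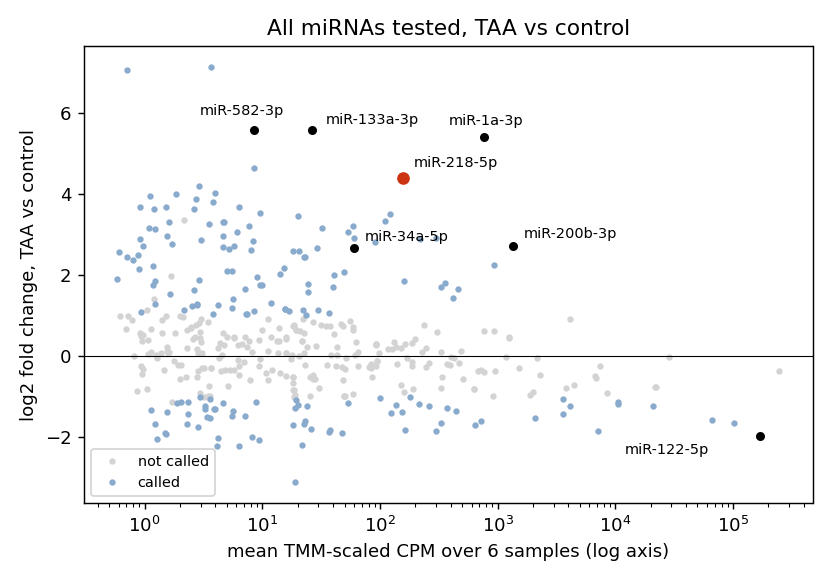
Log2 fold change of the TAA group against the control group for the 420 rows tested (vertical axis) against their mean TMM-scaled CPM over 6 libraries (horizontal, log axis). Blue points were called, grey points were not, and black points carry their names. Of the black points, miR-1a-3p and miR-133a-3p were not called. mmu-miR-218-5p (red) lies at 4.40, above almost all rows of like abundance, and those muscle miRNAs rest on TAA replicate 3.

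After TAA was withdrawn, mmu-miR-218-5p fell back. The fitted log2 fold change of the recovery group against the TAA group was -4.46 (SE 0.38), 6th from the bottom of 440 rows tested. In this comparison 10.2% of the rows were called higher and 14.5% lower. Among the 234 rows with at least 10 CPM it was 5th from the bottom, behind miR-1a-3p, miR-1b-5p, miR-133a-3p and miR-206-3p, all of striated muscle and all highest in TAA replicate 3. Without that library it came first of 232 rows at -4.60, and the next was miR-34a-5p at -2.56. Both comparisons share the TAA libraries, so the rise and the fall are not independent measurements.

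The recovery and control groups were compared with a test. The choice of mmu-miR-218-5p set each of them against the TAA group and not against each other. It still used the values of both groups, so the test is not independent of that choice. The log2 fold change of mmu-miR-218-5p was 0.02 (SE 0.28), with a 95% interval of -0.60 to 0.63 and an FDR of 0.984 by edgeR's quasi-likelihood test. Smaller differences than the ends of this interval could not be resolved with 3 mice a group. In this comparison 10.5% of the 391 rows tested were called higher and 0.767% lower. Set against the rise from the control mean to the TAA mean in CPM, the recovery mice stood at -1.81%, 0.715% and 1.60% of it.

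The 3p arm was the readout that could assign counts to a locus, and it was nearly absent. mmu-miR-218-1-3p, from the Slit2 locus, had 1, 2 and 0 counts in the TAA libraries and 0 in each of the other 6. In the TAA group it made up 3 of 13938 miR-218 counts, or 0.0215% (exact 95% interval 0.00444% to 0.0629%). With 0 of 338 counts in the control group the exact 95% upper limit of the share was 1.09%, and with 0 of 435 in the recovery group it was 0.844%. The limit set by a floor of 3 counts was 0.888% and 0.690%. Only the TAA group was therefore deep enough to limit the share tightly. The row was under the filter in every comparison and was not tested.

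mmu-miR-218-2-3p, the arm of the Slit3 locus, was not analysed here. Neither was miR-585, a miRNA that also lies within Slit3. With a single 3p arm at 3 counts, the shares of the Slit2 and Slit3 loci in the mmu-miR-218-5p counts could not be estimated. The counts of mmu-miR-218-1-3p, 1 and 2 in 2 TAA libraries, were each under the floor of 3 counts. Whether these reads came from the Slit2 hairpin was not tested, and they give no measure of how many 5p counts came from it. How reads that match both loci were counted is not given in the sources used here.

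The strand bias of miR-218 was strong but not unique. Of 111 hairpins with both arms listed and at least 1000 TAA counts on the major arm, 7 had a smaller minor-arm share, and the median minor-arm share was 1.34%. The miR-218 share takes only the Slit2 3p arm over 5p counts to which both loci can contribute, so it is not the arm share of a single hairpin.

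Because the livers were measured whole, fewer cells of a type and less RNA per cell cannot be told apart. Markers of other cell types also moved between the groups, and their part in the miR-218 values was not tested. Among 9 mesenchymal miRNAs (stellate cells, fibroblasts and smooth muscle) 5 rose in the TAA group and 0 fell, against a background of 25.0% of rows called higher, and their median log2 fold change was 1.44 beside 0.11 over all rows. The 5 that rose were the arms of miR-199 and miR-214, such as miR-214-3p (2.003, FDR 0.000114) and miR-199a-3p (1.66, FDR 0.00047). Smooth muscle-enriched miR-143-3p (-0.02, FDR 0.944) and miR-145a-5p (-0.25, FDR 0.272) did not pass the test. In the recovery group the same 5 arms were lower than in the TAA group, with a median over the list of -1.23 beside -0.12 and a background of 14.5% called lower. By library totals 7 of the 9 were called higher in the TAA group and 6 lower in the recovery group. With that scaling the calls over all rows also rose, from 175 to 245 and from 109 to 207. The median of all rows moved to 1.23 and -0.98, beside 2.55 and -2.10 for the list.

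Biliary epithelial miRNAs, here the miR-200 family of epithelial cells, also rose and fell. All 5 rose in the TAA group, with a median of 2.24 beside 0.11 over all rows and a background of 25.0% called higher. All 5 fell in the recovery group, with a median of -1.37 beside -0.12 and a background of 14.5% called lower. Summed, they held 582.1 to 764.4 CPM in control mice, 3332 to 5535 in TAA mice and 1240 to 1415 in recovery mice. Of the 6 hepatocyte miRNAs 5 fell in the TAA group (median -1.50, background 16.7% called lower) and 4 rose in the recovery group (median 1.16, background 10.2% called higher), and their sum went from 516400 to 535000 CPM in control mice to 149300 to 178200 in TAA mice. The hepatocyte calls depended on scaling: by library totals 1 was called higher and 0 lower in the TAA group, where the median of all rows was itself shifted to 1.23. In recovery against TAA 0 of the 6 were called in either direction by library totals (median 0.29).

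Of 4 leukocyte miRNAs 1 was called higher in the TAA group, the same share as the 25.0% of all rows. Their median was 0.69 beside 0.11 over all rows, and 3 of the 4 passed the FDR by edgeR. Of these, miR-142a-3p (0.65, FDR 0.034) and miR-150-5p (0.74, FDR 0.0070) were under the fold limit. Of 4 red cell miRNAs 1 fell (median -0.99), beside 16.7% of all rows called lower. By library totals, where the median of all rows was 1.23, all 4 leukocyte miRNAs were called higher and 0 red cell miRNAs lower. These counts thus rest on the scaling. Neither of the endothelial miR-126a arms was called (median -0.68). Both passed the FDR by edgeR (miR-126a-3p 0.0037, miR-126a-5p 0.0011), but their falls were under the fold limit. By library totals their median was 0.44, again with no call. Of 7 miRNAs linked to stellate cell activation 1 rose (miR-34a-5p) and 2 fell (miR-29b-3p and miR-29c-3p, which target collagen messenger RNAs), beside the same backgrounds of 25.0% higher and 16.7% lower. By library totals, again with the shifted median of 1.23 over all rows, 3 were called higher and 1 lower. Striated muscle miRNAs summed to 12.8 to 4742 CPM in the TAA group, the highest being replicate 3. mmu-miR-218-5p had 231.3 CPM in that library and 235.0 CPM in TAA replicate 2. Since miR-218 is abundant in motor neurons, neuronal miRNAs were also read: their sum was 8.65 to 13.2 CPM in control mice, 6.35 to 15.5 in TAA mice and 7.27 to 11.9 in recovery mice. Of the 2 neuronal rows tested, miR-9-5p was called higher and miR-137-3p lower in the TAA group (1 higher and 0 lower by library totals), and miR-124-3p, which defines neurons, had at most 0.135 CPM in any library. In recovery against control, the calls over all these lists were 1 biliary epithelial miRNA higher (miR-200a-3p, 1.01, FDR 0.00026) and 1 red cell miRNA lower, beside backgrounds of 10.5% and 0.767%. By library totals 3 biliary epithelial miRNAs were called higher and 0 red cell miRNAs lower in that comparison. There the calls over all rows went from 44 to 49.

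**Figure D4:**
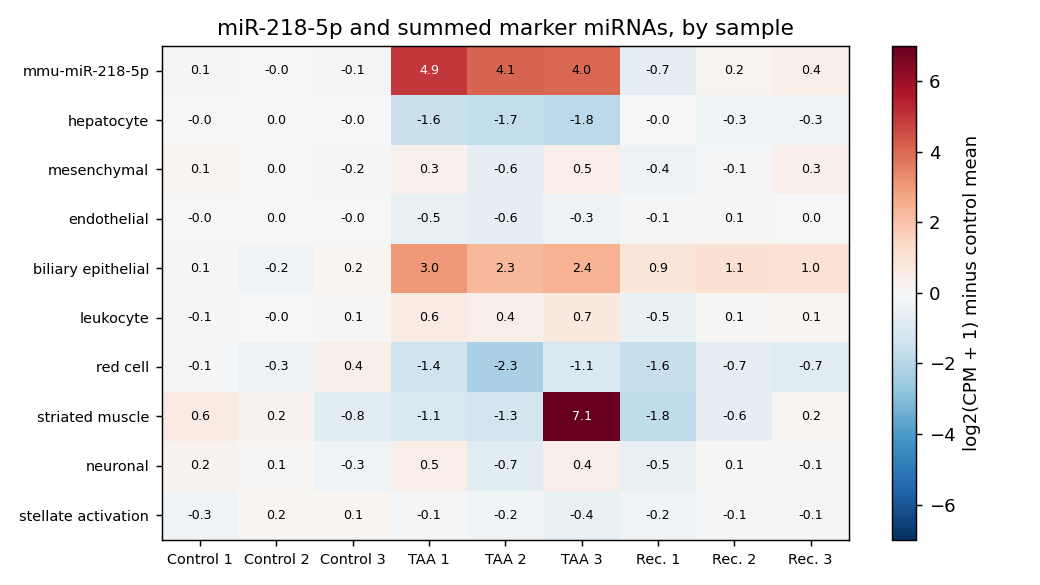
mmu-miR-218-5p and the summed CPM of each marker list in every library, as log2(CPM + 1) minus the control mean. A sum follows its most abundant members. In TAA libraries miR-143-3p held 16860 to 37790 CPM of a mesenchymal sum of 18140 to 39680. There miR-21a-5p held 198600 to 244400 CPM of a stellate activation sum of 199700 to 245600. The rise of the miR-199 and miR-214 arms is therefore not visible in the mesenchymal row. Rows are lists, columns are the 9 libraries and the printed values are the plotted ones. mmu-miR-218-5p is 4.03 to 4.93 above the control mean in TAA libraries, the biliary epithelial list rises less, and the striated muscle list is high in TAA replicate 3 alone.

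Ratios within a library need no scaling, and they show how far mmu-miR-218-5p outran other miRNAs. For each 1000 counts of miR-199a-3p there were 53.2 to 69.6 counts of mmu-miR-218-5p in control libraries, 262.9 to 595.2 in TAA libraries and 24.2 to 56.8 in recovery libraries. For each 1000 counts of miR-214-3p there were 676.3 to 979.8, 3493 to 6360, and 398.9 to 779.1. For each 1000 counts of endothelial miR-126a-3p there were 1.57 to 1.87, 35.8 to 77.2, and 1.06 to 2.19. TAA libraries were above the others in each ratio, so mmu-miR-218-5p changed by more than these mesenchymal and endothelial miRNAs. The same was seen against miR-143-3p, with 0.456 to 0.505, 6.12 to 13.9, and 0.380 to 0.584, and against hepatocyte miR-122-5p, with 0.0478 to 0.0526, 3.14 to 5.82, and 0.0255 to 0.0864. Since these ratios use the values that chose mmu-miR-218-5p, the TAA values carry no test.

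Against miR-200b-3p, which was added after its values were seen, the ratio in recovery mice was below that of control mice without overlap. It was 33.3 to 43.5 per 1000 in control libraries, 115.5 to 135.3 in TAA libraries and 13.8 to 27.2 in recovery libraries. In an exact two-sided permutation test of the log2 ratio between recovery and control (n = 3 each), the difference was -0.94 and p = 0.1, the smallest that 3 against 3 allows. Adjusted over the 6 ratios it was 0.6. The other ratios gave p values from 0.3 to 1.0 in the same exact test, and none of the 6 could have passed 0.05.

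The nearest profiles were sought among 249 miRNAs with at least 10 CPM in some group, by the root mean square difference over the 9 libraries in log2(CPM + 1) from the control mean. The nearest 5 were miR-582-3p (0.898), miR-34a-5p (1.02), miR-200a-5p (1.03), miR-429-3p (1.06) and miR-200b-3p (1.08), and the median over all compared was 2.52. None was a close match, as each lay about 1 log2 unit away. miR-34c-5p followed at 1.11, so the list has no clear edge. With a pseudocount of 0.1 in place of 1, miR-582-3p (control mean 0.33 CPM) and miR-200b-3p were no longer among the 5. Their sequences show whether likeness came with a shared seed.
mmu-miR-582-3p: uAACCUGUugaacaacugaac
mmu-miR-34a-5p: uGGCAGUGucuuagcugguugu
mmu-miR-200a-5p: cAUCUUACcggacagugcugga
mmu-miR-429-3p: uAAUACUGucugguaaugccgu
mmu-miR-200b-3p: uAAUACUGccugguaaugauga
No seed was that of mmu-miR-218-5p. miR-429-3p and miR-200b-3p share AAUACUG, and with miR-200a-5p they come from 1 cluster on the minus strand of chromosome 4, between chr4:156053916-156053937 and chr4:156055685-156055706.

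These profiles differed from miR-218 mainly in size and in recovery. miR-34a-5p, a miRNA induced by p53, had 19.25, 13.19 and 13.98 CPM in control mice, 111.5, 107.7 and 94.6 in TAA mice, and 18.3, 16.7 and 20.7 in recovery mice. Its rise was smaller than that of mmu-miR-218-5p, and against control its recovery log2 fold change was 0.22 (FDR 0.634, edgeR). miR-200b-3p had 334.6, 294.1 and 376.3 CPM in control mice, 3195, 1921 and 2002 in TAA mice, and 580.5, 657.0 and 654.2 in recovery mice. In recovery it stayed above control, with a log2 fold change of 0.88 (FDR 0.000325, edgeR), under the fold limit for a call. miR-429-3p (0.88, FDR 0.0192) and miR-200a-5p (0.93, FDR 0.0164) were near it, while miR-582-3p was called higher in recovery (2.66, FDR 0.00279) from at most 3 counts in any control library. Whether mmu-miR-218-5p differs from each in its return was not tested beyond the ratio to miR-200b-3p.

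**Figure D5:**
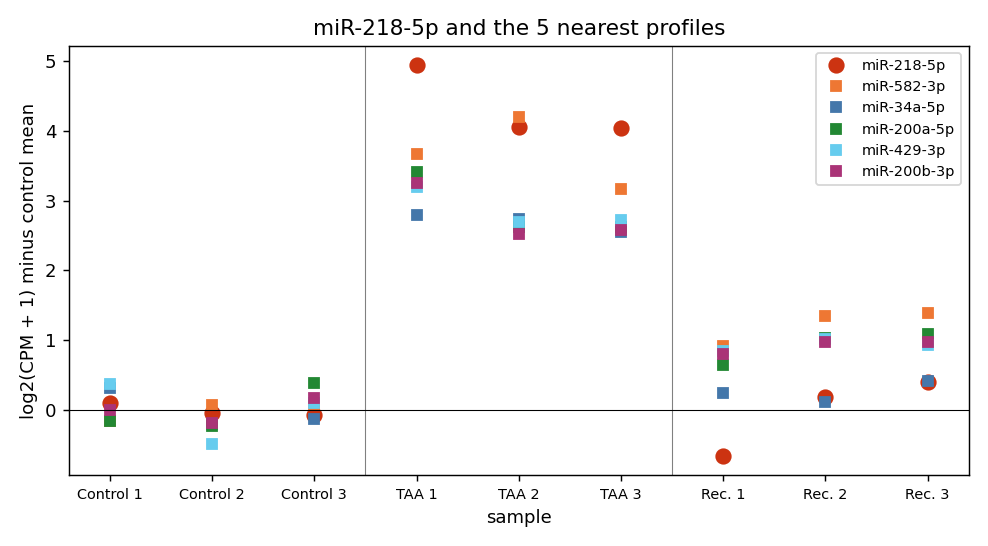
mmu-miR-218-5p (circles) and its 5 nearest profiles (squares) in each library, as log2(CPM + 1) minus the mean of the control libraries. In TAA libraries mmu-miR-218-5p lies at 4.03 to 4.93. In recovery libraries it lies at -0.653 to 0.405 and miR-34a-5p at 0.123 to 0.416, while the other 4 lie at 0.649 or higher.

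The seed of mmu-miR-218-5p pairs with AAGCACA, and this site was looked for in the 3′ UTRs of the Slit and Robo pathway on the sense strand, in the longest 3′ UTR of each gene (GENCODE M21). Messenger RNA was not measured in these libraries, so a match is a description of the sequence only. Of 10 genes 6 held the site, against 13.8% of 21020 genes, and against 15.5% of the genes with a 3′ UTR of 343 to 4817 bases, the range of the 10. Long UTRs hold more sites by their length alone: of genes with a UTR within 0.8 to 1.25 times that of Robo2, 38.0% held it, and for Robo1 18.5%. The share was 33.5% for Slit2, 38.4% for Srgap2, 42.5% for Srgap3 and 3.09% for Robo3. Among the genes without the site it was 11.6% for Slit1, 3.19% for Slit3, 18.5% for Robo4 and 40.7% for Srgap1. Whether 6 of 10 exceeds these shares was not tested. The sites of the receptors and of the host gene are shown with the match in capitals.
Robo1: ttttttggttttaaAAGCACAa
Robo2: ttttatttggtgatAAGCACAa
Robo3: cttgtgactcactgAAGCACAc
Slit2: gccaatactagcagAAGCACAt
Robo1 and Robo2 encode receptors for Slit proteins, Robo3 belongs to the same family, and Slit2 is the host of mir-218-1. Slit2 and Robo2 held 2 sites each, of which the first is shown, and Robo1 and Robo3 held 1 each. Srgap2 and Srgap3, GTPase-activating proteins that act downstream of Robo receptors, held 1 site each. No such match was found in the 3′ UTRs of Slit1, Slit3, Robo4 and Srgap1.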

How the data were processed

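Small RNA libraries from 9 livers were sequenced by the authors, who mapped reads with Bowtie 1.3.0 on mm10 (per the labels) and deposited for each miRNA a read count and a TPM value, here the count over the library total on the scale of CPM without TMM factors. Counting of reads that match several loci is not given in the sources used here. The 1140 rows held 1106 known miRNAs and 34 predicted ones, and 0 columns were left unused.

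Counts were tested with edgeR 4.0.16 (R 4.3.3) on the 6 samples of each of 3 comparisons: TMM factors, filterByExpr with a minimum count of 10, quasi-likelihood test, and Benjamini-Hochberg FDR over all rows tested. Rows were called where the fold change was at least 2 and the FDR under 0.05. The script was tested on simulated data. DESeq2 1.42.0, limma 3.58.1 on log2(TPM + 1), other scalings and filters, and leaving out each replicate were alternatives. Replicates differed by far more than sampling noise (chi-square per degree of freedom at least 26.2), so no library was counted as a repeat of another.

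The members and all lists were chosen with earlier results of these data known. Named miRNAs were the miR-218 rows, other listed miRNAs in Slit introns, marker lists by count with values where a result turned on them, and the 5 nearest profiles with at least 10 CPM in a group. The miRNAs above miR-218 in an order were named after their values were seen. Sequences are from RefSeq (GRCm38.p6, the same assembly as mm10), and gene structure from GENCODE M21.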

Additional observations from a re-analysis of the deposited data

How the results depend on the processing

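mmu-miR-218-5p kept its direction in TAA against control and in recovery against TAA under every alternative run. Its log2 fold change rose from 4.40 to 5.51 with library totals and to 5.34 with limma on log2(TPM + 1), and went from -4.46 to -5.29 and -5.22. The library totals carry no TMM factors, and the limma fit differs in test, pseudocount and scale at once, so the cause of its move was not tested. Leaving out 1 replicate gave 4.10 to 4.56 and -4.64 to -4.06. In recovery against control, where no call was made, the value of 0.02 turned to -0.0091 with no filter and to -0.0503 with a replicate block, and it ranged from -0.239 to 0.305 when 1 replicate was left out. The FDR was between 0.414 and 0.988 over all of these alternatives. Replicate numbers belong to different mice, and deviations of same-numbered samples correlated from -0.241 to 0.242, so they do not pair the samples. The replicate block gave 4.36 and -4.46 in the other comparisons. A mean of at least 10 CPM cut the calls from 175 to 80, from 109 to 61 and from 44 to 13, as fewer rows were tested, and library totals raised 109 to 207. With a pseudocount of 0.1, 3 of the 5 nearest profiles were kept. The nearest, miR-582-3p, and miR-200b-3p were replaced by miR-34c-5p and miR-190b-5p. Leaving out TAA replicate 3, chosen after seeing the data, moved the calls in TAA against control from 1 to 3 for red cell, from 0 to 1 for striated muscle and from 2 to 1 for neuronal miRNAs, and in recovery against TAA from 1 to 0 for striated muscle. The 3 TAA counts of mmu-miR-218-1-3p were 2, 1 and 3 without TAA replicate 1, 2 and 3. Its fold changes had no value to compare with, as the row was under the filter. With no filter its FDR was 0.487 in TAA against control and 0.471 in recovery against TAA. Other Slit intronic miRNAs were not analysed here. Depth limits the 3p share, and 3 mice a group limit the comparison of recovery with control.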
